A study of Mus musculus with 41 samples.

Results

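Hippocampal RNA of 3 SAMP8 mice was compared with that of 4 SAMR1 mice, all of them males aged 2.5 months (12 weeks in the sample descriptions), in 7 of the 41 libraries of the series. The 7 libraries were chosen by their labels alone: strain, region and age, with no measured value. The series holds cortex and hippocampus of both strains at 3 ages, and the 7 cortex libraries of the same age serve here only to show where the hippocampus differed. Each of the 7 hippocampal libraries came from 1 mouse, and 4 of the mice also gave a cortex library. SAMP8 (senescence-accelerated mouse prone 8) is an inbred strain with early learning deficits and a short life, and SAMR1 (senescence-accelerated mouse resistant 1) is a separate inbred strain of the same breeding program that ages at a normal pace. No single allele separates them, so each value below compares whole strains.

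The hippocampus encodes memory through excitatory neurons of the dentate gyrus and the CA fields, whose synapses are strengthened or weakened by signalling through glutamate receptors, kinases and phosphatases in the postsynaptic density. A dissected hippocampus lies against the lateral ventricle, where the choroid plexus makes cerebrospinal fluid and expresses transthyretin (Ttr) at a very high level. Strain comparisons of RNA also meet pseudogenes, which are copies of a gene elsewhere in the genome. The transcripts of some differ from the parent's at a few bases only.

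Of 15425 genes tested with edgeR's quasi-likelihood test, 14 (0.0908%) were called, which took both an adjusted p no larger than 0.1 and a log2 fold change of 1 or more in either direction. Of these, 7 (0.0454%) were higher and 7 (0.0454%) lower in SAMP8. In each of the 14, no SAMP8 library overlapped any SAMR1 library, which the calling itself favours. Over all genes tested, all SAMP8 libraries lay above all SAMR1 libraries in 3.39% and below in 4.62%. All but 6 of the 14 have predicted-gene or clone names. These 6 were Dctn3, Iyd and the Vcp copy Vcp-rs, which rose, and P3h2, Lefty1 and Ppp1r1a, which fell. Levels were modest, since 7 of the 14 reached a mean of 10 CPM (counts relative to library size after TMM scaling, the unit of every level below) in one strain. In bulk RNA, fewer cells of a type and less RNA per cell cannot be told apart.

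**Figure D1:**
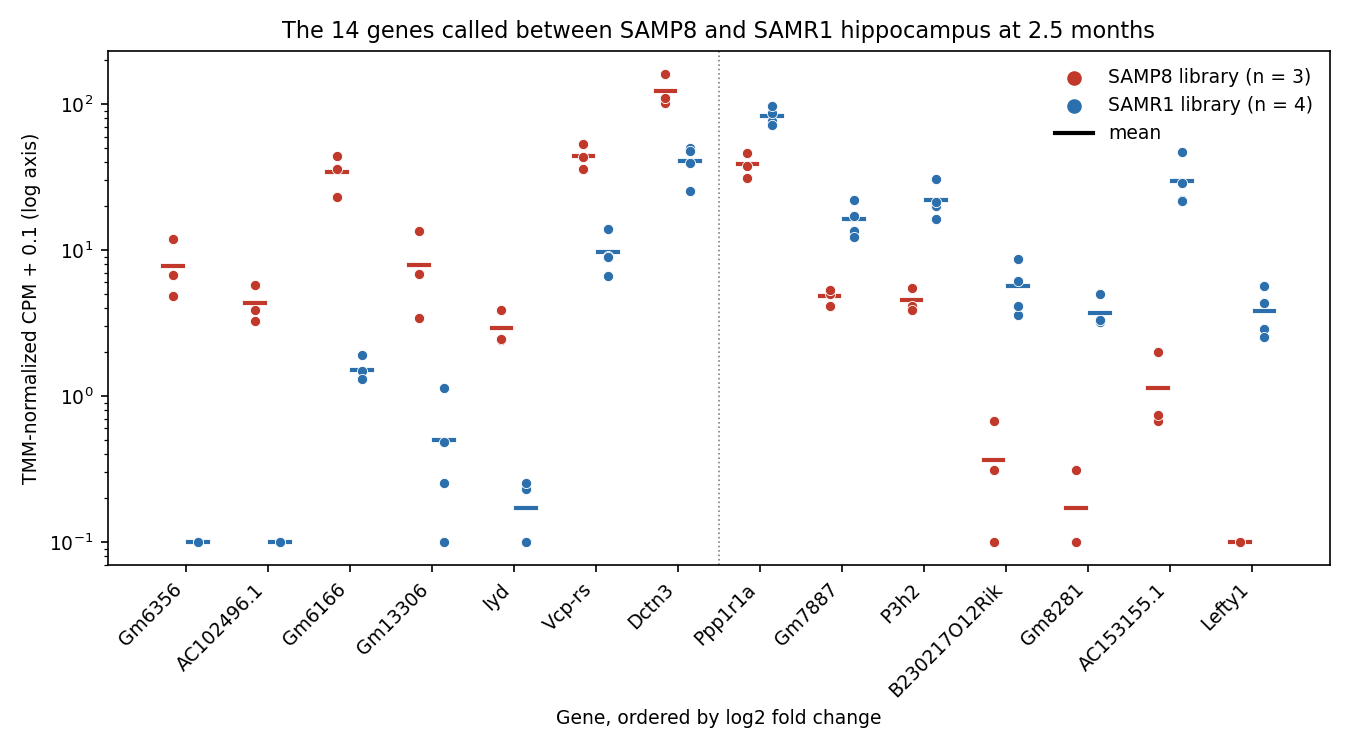
Level of the 14 called genes in each hippocampal library, in TMM-normalized CPM plus 0.1 on a log axis, with SAMP8 libraries (n = 3) in red, SAMR1 libraries (n = 4) in blue and bars at the group means. For every gene the red and blue points do not overlap, and Gm6356, AC102496.1 and Lefty1 had no counts at all in one strain.

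Total counts ran from 1992423 to 16066994 per library, with 18986 to 25626 genes detected and 2.85% to 3.88% of counts on mitochondrial genes. Xist had at most 2 counts and the Y-linked Ddx3y at least 188, as in males. Genes that separated the regions in 5 SAMR1 libraries (27 hippocampal, 48 cortical) were then summed in each library. The cortex libraries among the 5 held 1739 to 3509 CPM of striatal markers, so the 48 can include striatal genes, which was not checked. The hippocampal genes held 68.4% to 70.3% of the sum in SAMP8 replicates 1 and 2 and SAMR1 replicates 1 and 2, 54.2% in SAMP8 replicate 3 and 9.1% to 38.5% in the cortex libraries not used for the choice. In the 5 libraries that chose the genes, where the values are not independent of the choice, they held 68.9% and 82.6% in hippocampus (SAMR1 replicates 3 and 4) and 4.5% to 7.18% in cortex. In SAMP8 replicate 3, also the shallowest library, the hippocampal genes summed to 1103 CPM, within the 1084 to 1796 CPM of the other hippocampal libraries. The cortical genes summed to 932 CPM there, against 377.8 to 574.8 CPM. That library held more of the striatal markers: the 14 tested summed to 605 CPM there and to 250 to 326 CPM in the other 6. Its 54.2% and its striatal sum may therefore not be separate observations. Adora2a, the adenosine receptor of striatal neurons, was at 20.8 CPM in that library and at most 2.43 CPM elsewhere. Without it, 7 genes were called. Its part in the results was not tested.

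The smallest p belonged to a copy of a lipid chaperone gene. Gm6166 (chr9:57483963-57484371, plus strand, GRCm38, GENCODE M21) is annotated as a processed pseudogene and matches Fabp5, which encodes the epidermal fatty acid binding protein. It was at 23.1, 43.8 and 36 CPM in the SAMP8 libraries and at 1.81, 1.23, 1.39 and 1.22 CPM in the SAMR1 libraries. The SAMR1 libraries sat just above zero and each SAMP8 library lay far above them, with means of 34.3 ± 10.4 CPM (SD, n = 3) and 1.41 ± 0.276 CPM (SD, n = 4). The log2 fold change was 4.53 ± 0.31 (SE), with an adjusted p of 8.5e-05.

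Vcp-rs (chrX:104345829-104348234, minus strand), a copy of Vcp, also rose. Vcp encodes p97, the ATPase that extracts ubiquitinated proteins from membranes and complexes for degradation. Vcp-rs was at 43.4, 36 and 53 CPM in SAMP8 and at 6.52, 8.99, 13.9 and 8.91 CPM in SAMR1. The lowest SAMP8 library was well above the highest SAMR1 library, and the log2 fold change was 2.24 ± 0.26 (SE, adjusted p = 0.0096). The parent gene moved the other way: Vcp was at 80.4, 90.0 and 92.2 CPM in SAMP8 and at 133, 182, 164 and 175 CPM in SAMR1. It passed the adjusted p (0.0974) with a log2 fold change of -0.90 ± 0.16 (SE), under the fold threshold.

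The third copy changed in the opposite sense. Gm7887 (chr6:48524554-48525090, minus strand) matches Pcnp, which encodes a nuclear protein rich in PEST sequence. It was at 4.05, 4.91 and 5.2 CPM in SAMP8 and at 13.5, 17.1, 21.9 and 12.2 CPM in SAMR1, so that all SAMP8 libraries lay below all SAMR1 libraries (log2 fold change -1.79 ± 0.30, SE, adjusted p = 0.0844). Pcnp, a gene named here after its values were seen, was higher in SAMP8 by 0.61 ± 0.18 on the log2 scale (unadjusted p = 0.0048, edgeR) and did not pass the adjusted threshold (adjusted p = 0.538). Fabp5 was lower in SAMP8 by the fit, at -0.88 ± 0.25 on the log2 scale, and did not pass either (adjusted p = 0.487).

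The stretches below, from the GENCODE M21 transcripts, show how little separates each parent from its copy. Capitals mark the bases that differ within a pair, and each is read 5′ to 3′ on the strand of its gene. The Vcp stretch spans an intron within chr4:42983520-42984306 (minus strand) and its copy lies at chrX:104346696-104346755 (minus strand), the Fabp5 stretch spans an intron within chr3:10015553-10016105 (plus strand) and its copy lies at chr9:57484298-57484357 (plus strand), and the Pcnp stretch spans an intron within chr16:56017285-56018498 (minus strand) and its copy lies at chr6:48524648-48524707 (minus strand).
Vcp: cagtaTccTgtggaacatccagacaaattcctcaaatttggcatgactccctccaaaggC
Vcp-rs: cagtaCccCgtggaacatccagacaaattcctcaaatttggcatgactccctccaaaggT
Fabp5: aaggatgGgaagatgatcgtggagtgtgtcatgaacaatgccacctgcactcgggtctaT
Gm6166: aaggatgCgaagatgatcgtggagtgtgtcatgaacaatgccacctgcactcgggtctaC
Pcnp: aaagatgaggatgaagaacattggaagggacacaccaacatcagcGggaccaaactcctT
Gm7887: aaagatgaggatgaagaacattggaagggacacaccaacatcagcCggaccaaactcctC

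Over the aligned coding bases, Vcp and Vcp-rs differed at 8 of 2403 (99.7% identity) and by 1 gap, with an identical run of 794 bases. Fabp5 and Gm6166 differed at 5 of 405 bases (98.8%) and by 1 gap, and Pcnp and Gm7887 at 2 of 534 (99.6%). Of all windows of 50 bases in the copy, 83.2% of those of Vcp-rs also occur in Vcp, 51.1% of those of Gm6166 in Fabp5 and 86.9% of those of Gm7887 in Pcnp. A read from such a window cannot be assigned to one of the pair by its sequence, so the levels of parent and copy are uncertain and were also summed.

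Summed over parent and copy, the strains came close for one pair. Fabp5 plus Gm6166 gave 63.8, 111.5 and 79.47 CPM in SAMP8 and 129.8, 72.39, 100.9 and 78.21 CPM in SAMR1, with the groups overlapping. Vcp plus Vcp-rs gave 123.8, 126.1 and 145.2 CPM in SAMP8 and 139.4, 190.7, 177.7 and 183.9 CPM in SAMR1, where only SAMR1 replicate 1 fell among the SAMP8 values (means 131.7 ± 11.76 and 172.9 ± 22.96 CPM, SD). Pcnp plus Gm7887 gave 92.52 ± 11.94 CPM (SD, n = 3) in SAMP8 and 73.63 ± 7.165 CPM (SD, n = 4) in SAMR1.

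The share on Gm6166 was 36.29%, 39.29% and 45.24% of the pair in SAMP8 and 1.379% to 1.698% in SAMR1. That on Vcp-rs was 35.05%, 28.6% and 36.48% in SAMP8 and 4.674% to 7.827% in SAMR1. For Gm7887 the order was turned, with 3.867%, 5.336% and 6.433% in SAMP8 and 16.09% to 30.43% in SAMR1. No library of one strain reached the range of the other for any of the 3 pairs. The pairs were taken because their copies were called, so the shares are a description.

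**Figure D2:**
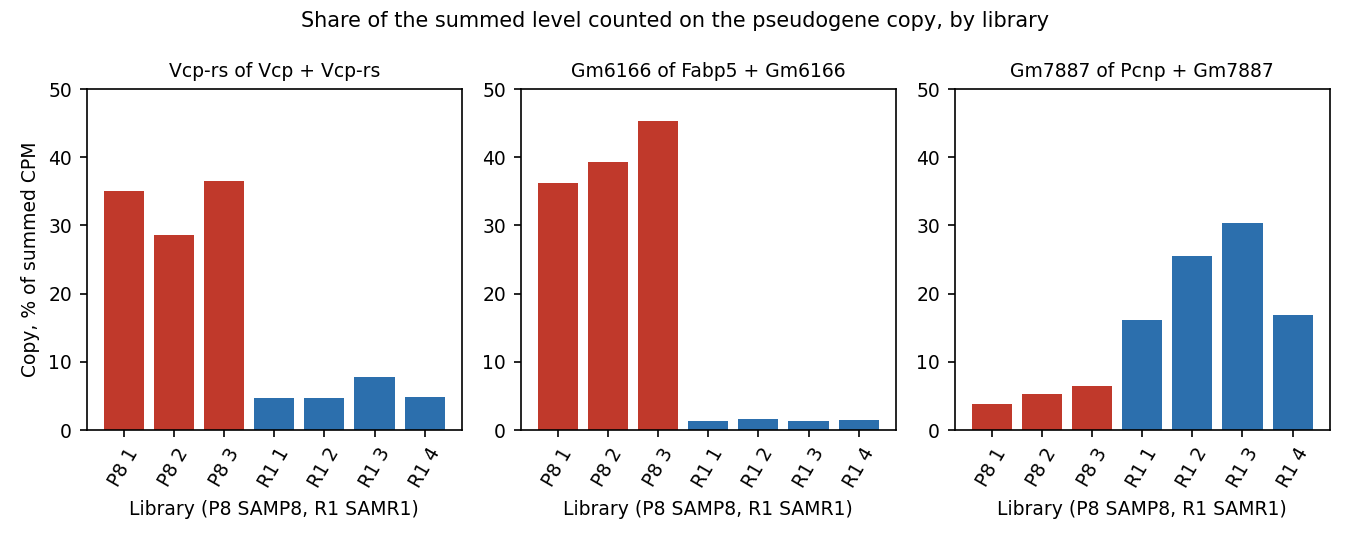
Share of the summed level of parent and copy that was counted on the pseudogene copy, in % of summed CPM, 1 bar per hippocampal library (P8, SAMP8; R1, SAMR1). SAMP8 bars are tall for Vcp-rs (28.6% to 36.48%) and Gm6166 (36.29% to 45.24%), and SAMR1 bars are the taller ones for Gm7887 (16.09% to 30.43%).

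Dctn3 (chr4:41714798-41723170, minus strand), which encodes the p24 subunit of dynactin, the adaptor through which dynein carries cargo along microtubules, rose in SAMP8. It was at 102, 160 and 109 CPM in the SAMP8 libraries and at 50.1, 47.5, 39.6 and 25.1 CPM in the SAMR1 libraries. Every SAMP8 library was above every SAMR1 library, with means of 124 ± 31.9 CPM (SD, n = 3) and 40.6 ± 11.2 CPM (SD, n = 4). The fitted difference was 1.59 ± 0.24 on the log2 scale (SE), and its adjusted p was 0.0523. None of its windows of 50 bases occurs in another gene. The call held without SAMR1 replicate 2 or 4 and was lost without any of the 3 SAMP8 libraries or without SAMR1 replicate 1 or 3, with an adjusted p of up to 0.394 and a log2 fold change of 1.36 to 1.72. Of 22 dynactin and dynein genes tested, Dctn3 was the only one called, and the median log2 fold change was -0.02. Dynlt3, a dynein light chain, was at 0.40 ± 0.14 (unadjusted p = 0.016, edgeR) and Dctn1, the large dynactin subunit that binds microtubules, at -0.32 ± 0.16 (unadjusted p = 0.078, edgeR).

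The neighbours of Dctn3 on chromosome 4 differed in the same direction. Taken from Rpp25l, which starts at -2.765 kb from the start of Dctn3, to Gm12394 at 1067 kb, 9 genes besides Dctn3 were tested, and in 7 all SAMP8 libraries lay above all SAMR1 libraries (3.39% of all genes tested). These 7, like Dctn3, had an unadjusted p of at most 0.05 with the higher level in SAMP8 (2.54% of all genes). The stretch and its named neighbours were picked with their values in view and its ends were set where the differences lay, which fixes such a count, so it is a description only. In the 1 Mb before Rpp25l, 20 genes were tested, 2 above and 2 below, and within 7 Mb of Dctn3, stretch included, 113 were tested, 13 above and 6 below.

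Rpp25l, whose product resembles a subunit of ribonuclease P, was at 12.4, 17.6 and 19.4 CPM in SAMP8 and at 6.78, 9.07, 4.87 and 5.67 CPM in SAMR1. The groups did not overlap, and the gene did not reach the adjusted threshold (log2 fold change 1.25 ± 0.29, adjusted p = 0.273). Galt, the galactose-1-phosphate uridylyltransferase gene at 40.43 kb, overlapped between strains (0.13 ± 0.22), as did Ccl27a, a chemokine gene (0.42 ± 0.25).

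Predicted genes further along had few or no counts in SAMR1. Gm13306 (chr4:42153436-42158839, plus strand) shares 75.1% of its 50-base windows with other genes (56.7% with Ccl27a), so its level is uncertain. It was called at 6.80, 13.4 and 3.31 CPM in SAMP8 and 0.387, 0.154, 1.04 and 0 CPM in SAMR1 (log2 fold change 4.52 ± 0.70, SE, adjusted p = 0.0584). Gm12407, a pseudogene, had 38 counts over the SAMP8 libraries and 0 over the SAMR1 libraries, at least 23.3-fold higher against a floor of 3 counts over the group (adjusted p = 0.161). Gm17167 had 34 and 0 counts (at least 20.85-fold higher), Gm10601 54 and 6, and Gm12394 49 and 11. None of these last 4 passed the adjusted threshold. Vcp lies 1265 kb after Dctn3, with the lower level in SAMP8 given above. Of the 14 called genes, 2 (Dctn3 and Gm13306) had another called gene within 1 Mb, while 1.36% of 15362 tested genes had a called gene that close.

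**Figure D3:**
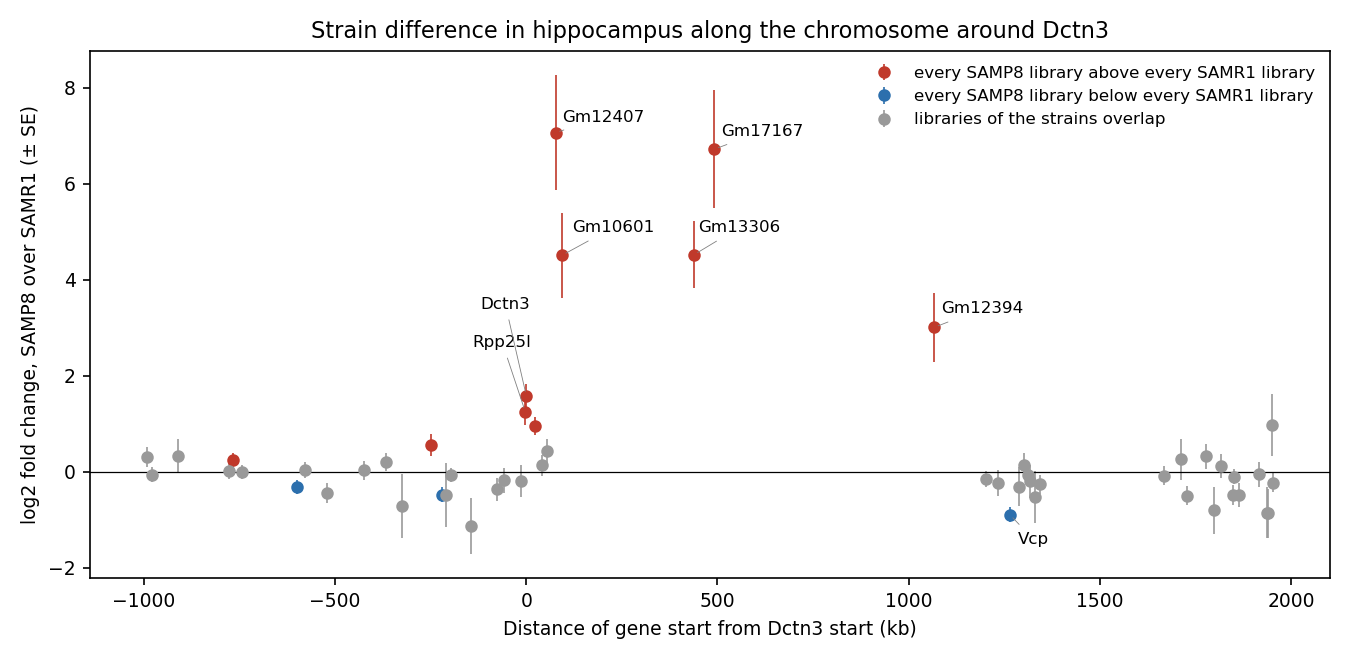
Log2 fold change of SAMP8 over SAMR1 in hippocampus (± SE) for tested genes by distance of their start from that of Dctn3, in kb, coloured by whether the libraries of the strains overlap. Of the 10 genes from Rpp25l to Gm12394, 8 have every SAMP8 library above every SAMR1 library, and Vcp at 1265 kb lies below 0.

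Among the genes that fell, Ppp1r1a (chr15:103530279-103538003, minus strand) encodes an inhibitor of protein phosphatase 1 that acts when phosphorylated by protein kinase A and is part of the machinery of synaptic plasticity. It was at 31.2, 46.4 and 37.8 CPM in SAMP8 and at 76.7, 86.4, 71.3 and 97.7 CPM in SAMR1. The highest SAMP8 library was below the lowest SAMR1 library, and the log2 fold change was -1.10 ± 0.19 (SE, adjusted p = 0.0885). The call rested on every library: without any single one the adjusted p was 0.13 to 0.487 and the log2 fold change -1.27 to -0.96. None of its 50-base windows occurs in another gene.

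P3h2 (chr16:25959288-26105784, minus strand), a prolyl 3-hydroxylase that modifies collagen chains, was at 4.05, 5.44 and 3.78 CPM in SAMP8 and at 20.1, 21.1, 16.4 and 30.8 CPM in SAMR1. The SAMR1 libraries were all well above the SAMP8 ones (log2 fold change -2.26 ± 0.30, SE, adjusted p = 0.0179), and the call was lost without SAMP8 replicate 1 or 2, with an adjusted p of up to 0.227. Of its windows, 27.5% occur in other annotated transcripts. Among 25 tested collagens and their modifying enzymes, P3h2 was the only one called and the median was -0.03. Col11a1, a fibrillar collagen chain, was at 5.21, 6.19 and 5.68 CPM in SAMP8 and at 10.1, 11.4, 13.9 and 24.3 CPM in SAMR1 and did not pass (-1.34 ± 0.35, adjusted p = 0.399).

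Lefty1 (chr1:180935022-180938400, plus strand), which encodes a secreted inhibitor of Nodal signalling, had no count in any SAMP8 library and 4.26, 5.53, 2.78 and 2.43 CPM in the SAMR1 libraries. Over the groups these were 0 and 152 counts, at least 27.5-fold lower in SAMP8 against the floor of 3 counts (adjusted p = 0.0584). Of its 50-base windows, 17.9% occur in Lefty2. In cortex of the same age it was also absent from SAMP8 and at most 0.5104 CPM in SAMR1, so that its level in SAMR1 was mostly hippocampal. Iyd (chr10:3540240-3554877, plus strand), the iodotyrosine deiodinase that recovers iodide, had the reverse pattern, with 2.31, 2.35 and 3.78 CPM in SAMP8 and 0.129, 0.154, 0 and 0 CPM in SAMR1. These were 46 and 4 counts. The fitted difference of 4.39 ± 0.78 on the log2 scale (SE) passed with an adjusted p of 0.0974 and missed the adjusted threshold without any single library (adjusted p of 0.129 to 0.492). The Lefty1 call held only without SAMR1 replicate 4 and had an adjusted p of up to 0.394 without one of the others.

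The remaining called transcripts have predicted-gene or clone names. Gm6356 (chr14:6965449-6973818, minus strand) was at 11.9, 6.61 and 4.73 CPM in SAMP8 with no count in SAMR1, 154 against 0 counts and at least 94.4-fold higher (adjusted p = 0.0179). Gm8281 (chr14:5071040-5093318, plus strand) went the other way, with 2 counts in SAMP8 and 112 in SAMR1, a ratio of SAMR1 to SAMP8 of 30.4 (95% exact interval 8.23 to 254, counting error only, adjusted p = 0.0885). Both belong to families of near-identical predicted genes on chromosome 14: 49.2% of the 50-base windows of Gm6356 occur in other genes (104 of them) and 77.9% of those of Gm8281 (105 of them), so which member was transcribed is uncertain. The long intergenic RNA AC153155.1 was at 0.579, 0.640 and 1.89 CPM in SAMP8 and at 22, 28.7, 21.6 and 47 CPM in SAMR1 (log2 fold change -5.18 ± 0.47, SE, adjusted p = 0.000813). None of its windows occurs in annotated transcripts of another gene, and the rest of the genome was not searched. The long intergenic RNA B230217O12Rik (chr19:57323193-57360775, minus strand) was at 0.579, 0.213 and 0 CPM in SAMP8 and at 3.48 to 8.61 CPM in SAMR1 (-4.09 ± 0.67, SE, adjusted p = 0.0748), and 25.2% of its windows occur in other genes. AC102496.1, another, had 83 counts in SAMP8 and 0 in SAMR1, at least 50.9-fold higher (adjusted p = 0.0546), and shares 45% of its windows with other genes.

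The 14 calls differed in how far they rested on single libraries. Gm6166, AC153155.1 and Vcp-rs were called in all 7 fits that each left out 1 library, and Gm6356 and P3h2 in 5 of 7. Gm13306 was called in 3, Dctn3 and AC102496.1 in 2, Lefty1, B230217O12Rik and Gm7887 in 1, and Gm8281, Ppp1r1a and Iyd in none. The number called was 3 without SAMP8 replicate 1 or 2, 7 without SAMP8 replicate 3, 5, 6 and 7 without SAMR1 replicates 1, 2 and 3, and 13 without SAMR1 replicate 4.

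The question whether these differences are particular to the hippocampus was put to the cortex libraries of the same age. SAMP8 cortex replicate 2 had only 28861 counts and SAMR1 cortex replicate 4 had 500986. Striatal markers summed to 3509, 1739, 2288 and 357.9 CPM in the SAMR1 cortex libraries. In the SAMP8 ones they summed to 275.2, 172.3 and 1129 CPM. Strain and dissection are thus not fully separable in cortex, and the effect on the cortical calls and the interaction was not tested. There, 86 of 15190 genes (0.566%) were called, and 9 of the 14 hippocampal calls were among the 86. The fold changes were near those in hippocampus for Gm6166 (4.47 ± 0.46 in cortex, 4.54 ± 0.42 in hippocampus, SE), Dctn3 (1.64 ± 0.28 and 1.59 ± 0.26), Vcp-rs (2.54 ± 0.30 and 2.24 ± 0.27) and P3h2 (-2.43 ± 0.42 and -2.27 ± 0.33). Ppp1r1a was at -1.01 ± 0.30 in cortex and was not called there (adjusted p = 0.17), and neither were B230217O12Rik, Gm7887, Iyd and Lefty1. The sign was the same in both regions for 13 of the 14, and 4 mice contributed to both.

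Iyd was the exception in sign, at -0.38 ± 1.48 in cortex on levels of at most 0.5104 CPM in any library. Its difference between regions was 4.79 ± 1.59 (SE, unadjusted p = 0.0066, edgeR) and that of Gm7887 -1.46 ± 0.63 (SE, unadjusted p = 0.031, edgeR). Neither passed the adjustment over all genes. In the interaction of strain and region, 0 of 15190 genes (0%) had an adjusted p of at most 0.1 by edgeR, where 642 had an unadjusted p under 0.05. The edgeR test took the libraries as independent, although 4 mice gave both regions. DESeq2 also gave 0, as did limma voom with and without mouse as a block.

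Choroid plexus genes split the libraries across the strains. Ttr, the thyroxine carrier of cerebrospinal fluid, was at 145, 5339 and 5978 CPM in SAMP8 and at 166, 5676, 226 and 22.7 CPM in SAMR1. SAMP8 replicates 2 and 3 and SAMR1 replicate 2 were high and the other 4 libraries low, so that the groups overlapped (log2 fold change 1.32 ± 1.36, SE, unadjusted p = 0.351, edgeR). Enpp2, which makes lysophosphatidic acid, was at 455, 3126 and 4180 CPM in SAMP8 and at 365, 2810, 377 and 200 CPM in SAMR1. Kl, which encodes the anti-ageing co-receptor klotho, followed the same libraries, at 21.4, 213 and 342 CPM in SAMP8 and 21.1, 195, 27.1 and 15.4 CPM in SAMR1.

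Of 25 choroid plexus genes listed, 24 were tested. All 24 had a fitted log2 fold change above 0 (50% of all genes did), with a median of 1.04, and 0 had an unadjusted p of at most 0.05. Without the filter on low counts, 11 were called, all higher in SAMP8, such as Ttr (1.29, adjusted p = 1.4e-07) and Prlr, the prolactin receptor (1.69, adjusted p = 1.3e-13), although their libraries overlapped, while DESeq2 and limma voom called 0. Their summed level ran from 744 to 12180 CPM in SAMP8 and from 314 to 10330 CPM in SAMR1, and in SAMR1 replicate 4 the defining markers Aqp1, a water channel, and Kcnj13, a potassium channel of the apical membrane, were at 0. With 2 of 3 SAMP8 libraries high and 1 of 4 SAMR1 libraries high, the median was 0.02 among the 4 low libraries, with 10 of 22 below 0, and 0.06 among the 3 high ones, with 12 of 25 below 0. These splits were made after seeing the data and by the level of these same genes, which favours medians near 0, and the high part has 1 SAMR1 library. Without SAMR1 replicate 2 the median was 3.25 and 21 of 22 tested genes had an unadjusted p of at most 0.05, all higher in SAMP8, and without SAMP8 replicate 3 the median was 0.59. With the choroid plexus level as a covariate, 13 of the 14 genes were called, and without the 3 high libraries 2 genes were called in all.

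**Figure D4:**
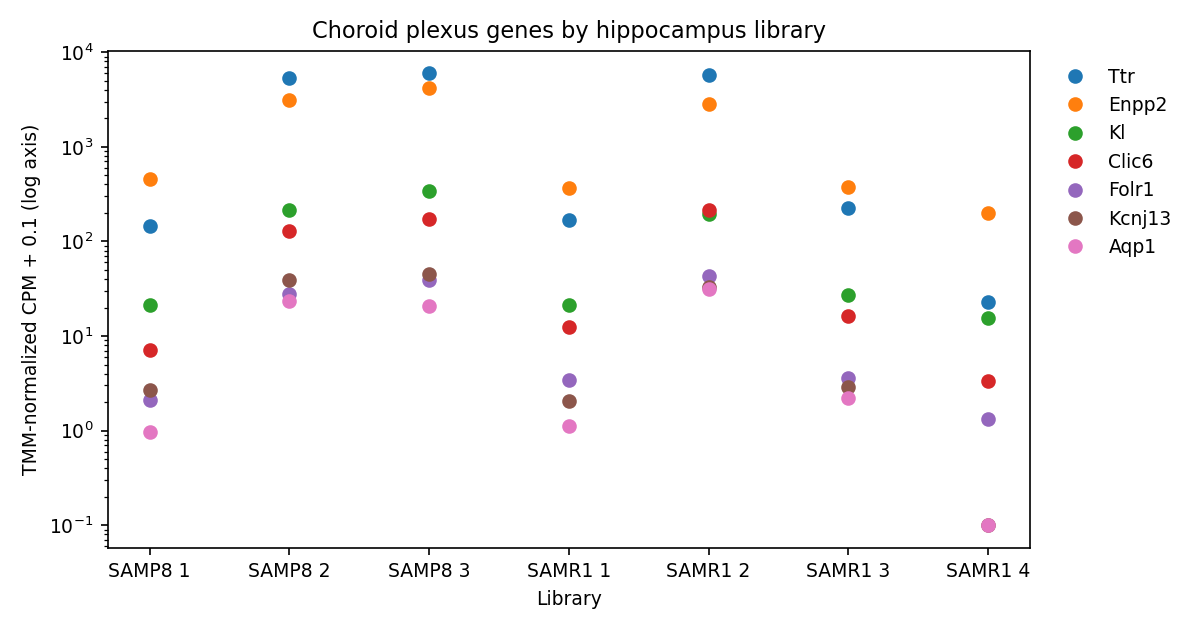
Level of choroid plexus genes in each hippocampal library, in TMM-normalized CPM plus 0.1 on a log axis, 1 colour per gene. SAMP8 replicates 2 and 3 and SAMR1 replicate 2 stand above the other 4 libraries, as for Ttr at 5339, 5978 and 5676 CPM against 22.7 to 226 CPM.

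Postsynaptic and presynaptic genes lay below 0 more often than above. Of 25 genes of the postsynaptic density and of long-term potentiation, 22 had a lower fitted level in SAMP8, with a median log2 fold change of -0.21 (0.00023 over all genes). In 9 the unadjusted p was at most 0.05 with the lower level in SAMP8, against 3.57% of all genes tested, and in 11 all SAMP8 libraries lay below all SAMR1 libraries, against 4.62% of all genes. Ppp1r1a was the only one called. The 9 were 4 without SAMP8 replicate 3 (2.74% of all genes in that fit), 5 without SAMP8 replicate 2 (3.05%) and 4 without the 3 libraries high in choroid plexus genes (1.93%), while the median stayed between -0.31 and -0.19. The count was smaller still in a fit of all 41 libraries, given in the closing section.

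Shank1, a scaffold of the postsynaptic density, was at 203, 250 and 180 CPM in SAMP8 and at 319, 299, 342 and 366 CPM in SAMR1. The groups did not overlap, and the log2 fold change of -0.65 ± 0.15 (SE) did not pass the adjusted threshold (adjusted p = 0.288). Its relative Shank3 was at 107, 121 and 111 CPM in SAMP8 and at 164, 168, 180 and 145 CPM in SAMR1 (-0.54 ± 0.14, SE, adjusted p = 0.435). Camk2a, the kinase that potentiation depends on, was at -0.51 ± 0.17 and Dlg4, the scaffold PSD-95, at -0.46 ± 0.16, both log2 fold changes with SE.

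At the presynaptic side, Bsn, the active zone scaffold bassoon, passed the adjusted p with a fold change just under the threshold. It was at 265, 345 and 356 CPM in SAMP8 and at 558, 587, 676 and 609 CPM in SAMR1, with each SAMP8 library far below each SAMR1 library (log2 fold change -0.92 ± 0.15, SE, adjusted p = 0.0844). Of 22 synaptic vesicle and active zone genes, 17 lay below 0 with a median of -0.17, and 5 had an unadjusted p of at most 0.05, all lower in SAMP8 (3.57% of all genes). Among them were also Vamp2, the vesicle SNARE (-0.55 ± 0.15), Pclo, the scaffold piccolo (-0.61 ± 0.19), and Syn1, which tethers vesicles (-0.45 ± 0.16). The 5 were 3 without SAMP8 replicate 3 (2.74% of all genes in that fit) and 2 without the 3 libraries high in choroid plexus genes (1.93%).

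Channel genes lay in the same direction. The list of voltage-gated calcium and potassium channels, 26 genes tested, also holds genes that are not such channels, among them Kcnip3 and Kcnk1. Of the 26, 7 had an unadjusted p of at most 0.05 with the lower level in SAMP8 (3.57% of all genes) and 1 with the higher level (2.54%). The latter was the leak potassium channel Kcnk1 at 0.49 ± 0.19, and the median of the list was -0.18. Cacna1a, the pore of P/Q-type calcium channels, was at 125, 115 and 98.9 CPM in SAMP8 and at 160, 173, 169 and 169 CPM in SAMR1, without overlap (-0.57 ± 0.14, SE, adjusted p = 0.364). The 7 were 3 without SAMP8 replicate 3 (2.74% of all genes in that fit) and 1 without the 3 libraries high in choroid plexus genes (1.93%), and the summed level of the list was highest in SAMR1 replicate 4 (5010 CPM, against 3184 to 3849 CPM in the other 6).

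Among glutamate receptors, 14 of 17 ionotropic subunits and 7 of 7 metabotropic ones lay below 0, with medians of -0.20 and -0.16, and 2 ionotropic and 0 metabotropic genes had an unadjusted p of at most 0.05 by edgeR, both lower in SAMP8 (3.57% of all genes). Grik3, a kainate receptor subunit, was at 53.5, 50.9 and 61.5 CPM in SAMP8 and at 76.1, 98.0, 110 and 77.0 CPM in SAMR1 (-0.71 ± 0.18, SE, adjusted p = 0.373). GABA-A receptor subunits did not lie to one side to that extent, with 8 of 12 above 0 and a median of 0.07, and none had an unadjusted p of at most 0.05.

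**Figure D5:**
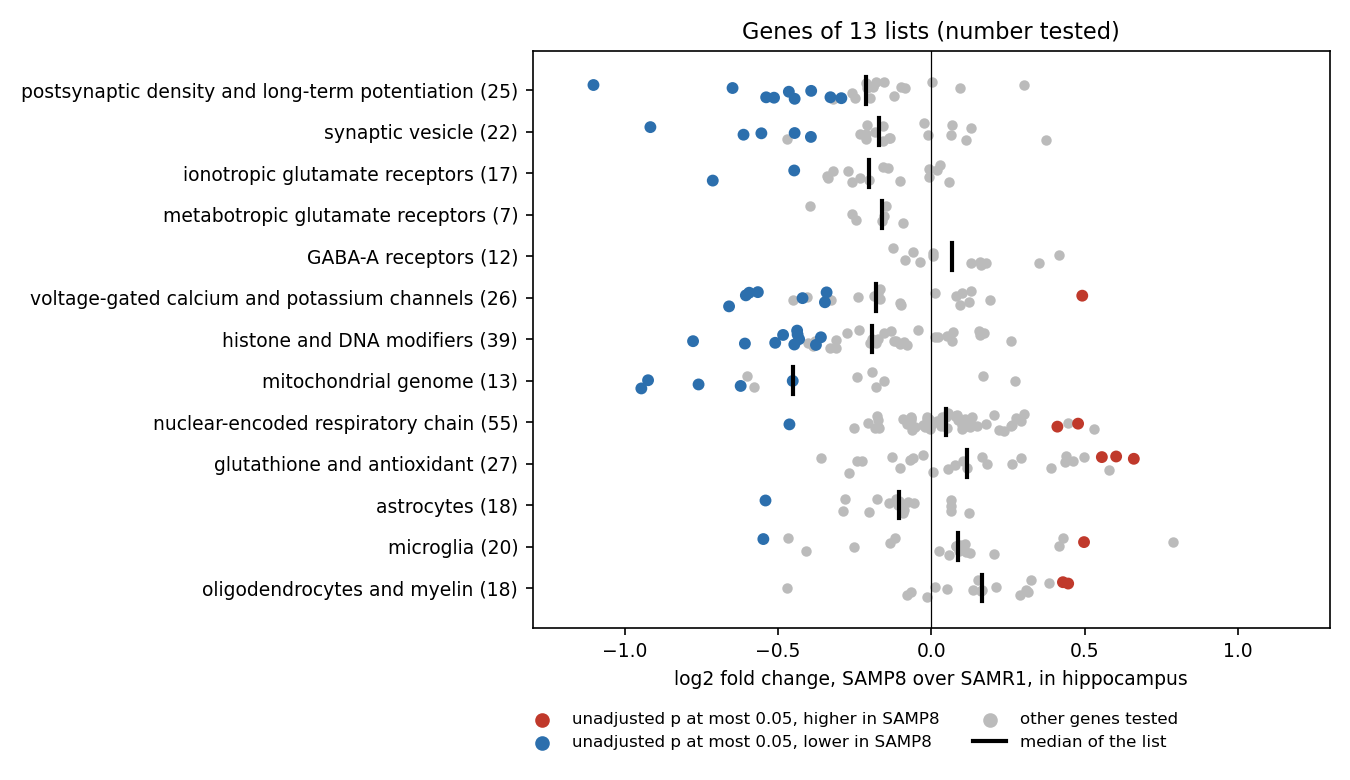
Log2 fold change of SAMP8 over SAMR1 in hippocampus for the tested genes of 13 lists, 1 point per gene, with a bar at the median of each list and colour for an unadjusted p of at most 0.05 in either direction. The postsynaptic list (median -0.21) and the histone and DNA modifiers (median -0.19) lie mostly left of 0, and the GABA-A receptors (median 0.07) have no coloured point.

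Chromatin regulators also lay mostly below 0. Of 39 histone and DNA modifiers, 30 lay below 0 with a median of -0.19, and 10 had an unadjusted p of at most 0.05, all lower in SAMP8 (3.57% of all genes). Kmt2d, a histone H3 lysine methyltransferase of enhancers, was at 76.1, 95.5 and 107 CPM in SAMP8 and at 163, 161, 150 and 160 CPM in SAMR1, without overlap (-0.78 ± 0.16, SE, adjusted p = 0.161). Arid1a, a subunit of the BAF remodelling complex, was at 116, 110 and 130 CPM in SAMP8 and at 174, 179, 177 and 193 CPM in SAMR1 (-0.61 ± 0.14, SE, adjusted p = 0.256). Crebbp, a histone acetyltransferase, was at -0.44 ± 0.14. The summed level of the list was 4365 to 4763 CPM in SAMP8 and 5331 to 5820 CPM in SAMR1. The 10 were 6 without SAMP8 replicate 2 (3.05% of all genes in that fit) and 3 without the 3 libraries high in choroid plexus genes (1.93%).

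Transcripts of the mitochondrial genome had a median of -0.45, with 11 of 13 below 0 and 5 at an unadjusted p of at most 0.05, all lower in SAMP8 (3.57% of all genes). mt-Atp6, a subunit of ATP synthase, was at 128, 56.1 and 67.2 CPM in SAMP8 and at 114, 237, 142 and 146 CPM in SAMR1, so that the groups overlapped (-0.92 ± 0.30, SE, adjusted p = 0.652). The 5 were 1 without SAMP8 replicate 2, 0 in a fit of all 41 libraries, and 0, with a median of -0.08, without the 3 libraries high in choroid plexus genes. With an offset for GC content and length the median was -0.79, with 9 of 13 at an unadjusted p of at most 0.05. Over 55 nuclear genes for subunits of the respiratory chain the median was 0.05, with 2 higher and 1 lower at an unadjusted p of at most 0.05 (2.54% and 3.57% of all genes).

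Glial and oxidative-stress genes had small medians. Of 27 glutathione and antioxidant genes, 18 lay above 0 with a median of 0.12 and 3 had an unadjusted p of at most 0.05, all higher in SAMP8 (2.54% of all genes), a count that was 0 without SAMR1 replicate 3. Nfe2l2, the factor NRF2 that drives antioxidant genes, was at 17.6, 18.9 and 19.4 CPM in SAMP8 and at 14.2, 14.8, 9.74 and 6.48 CPM in SAMR1, without overlap (0.66 ± 0.28, SE, adjusted p = 0.785). Gfap, the intermediate filament of astrocytes, was at 455, 468 and 535 CPM in SAMP8 and at 433, 535, 628 and 259 CPM in SAMR1 (0.06 ± 0.24), and Aif1, which encodes the microglial protein Iba1, was at 0.11 ± 0.38. Medians were -0.11 over 18 astrocyte markers, 0.09 over 20 microglial markers and 0.16 over 18 markers of oligodendrocytes.

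Markers of the hippocampal fields gave medians of -0.17 over 12 CA1 genes, 0.19 over 15 genes of CA3 and CA2 and 0.21 over 16 genes of dentate granule neurons. Spink8, a CA1 marker, was at 10.4, 8.74 and 16.1 CPM in SAMP8 and at 5.94, 2.92, 0.696 and 4.86 CPM in SAMR1, without overlap but short of the adjusted threshold (1.59 ± 0.48, SE, adjusted p = 0.571). Wfs1, also of CA1, was at -0.56 ± 0.21 (adjusted p = 0.717), Prox1, the factor of dentate granule identity, at 0.23 ± 0.17, and C1ql2, of the same neurons, at -0.12 ± 0.29.

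Of 8 genes that the study lists for this age over both regions, chosen by its authors on these samples, Dctn3 and Ppp1r1a were called here. Ranbp9, a scaffold protein of a ubiquitin ligase complex, was at 173, 159 and 126 CPM in SAMP8 and at 79, 98, 97 and 100 CPM in SAMR1. The groups did not overlap, and the adjusted p was 0.254 (0.71 ± 0.16, SE). Nnat, the imprinted neuronatin gene, was at 441, 430 and 274 CPM in SAMP8 and at 427, 577, 550 and 862 CPM in SAMR1 (-0.66 ± 0.24, adjusted p = 0.711). Rprl3, a ribonuclease P RNA-like gene, was at 81.7, 128 and 352 CPM in SAMP8 and at 135, 44.8, 41 and 107 CPM in SAMR1, with its highest value in SAMP8 replicate 3 (1.16 ± 0.49, adjusted p = 0.781). Peg10, an imprinted gene of retrotransposon origin, was at -0.62 ± 0.40 and Hap1, the huntingtin-associated protein, at -0.40 ± 0.26, both with overlapping groups. Fabp5 is given above with its copy.

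Some genes outside the calls separated the strains fully. Of all genes tested, 3.39% had every SAMP8 library above every SAMR1 library and 4.62% had every one below. Trim12a, a member of the tripartite motif family, had 41 counts over the SAMP8 libraries and 0 over the SAMR1 libraries, at least 25.1-fold higher, and missed the threshold (adjusted p = 0.128). Invs, which encodes the ciliary protein inversin, was at 33, 36.4 and 32.6 CPM in SAMP8 and at 14.3, 17.7, 18.8 and 18.6 CPM in SAMR1 (0.99 ± 0.19, SE, adjusted p = 0.161). H2-Q4, a class I histocompatibility gene, was at 0.289, 0.747 and 0.473 CPM in SAMP8 and at 1.68, 2.84, 3.83 and 1.22 CPM in SAMR1 (-2.14 ± 0.69, SE, adjusted p = 0.632). H2-T22, of the same class, lay the other way at 6.8, 7.15 and 7.09 CPM in SAMP8 and 4.84, 3.84, 4.52 and 2.03 CPM in SAMR1 (0.83 ± 0.36, SE, adjusted p = 0.806). Histocompatibility genes are a family of close relatives, in which reads of one allele can be assigned to another member.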

How the data were processed

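Total RNA of dissected hippocampus (TRIzol, CORALL Total RNA-Seq kit after RiboCop depletion of ribosomal RNA, NextSeq 500) was sequenced by the authors. Per the methods and file headers, the authors extracted molecular identifiers with UMI tools, trimmed with cutadapt, aligned with STAR, removed duplicates and counted stranded reads with featureCounts, and they deposited raw counts per gene. Their annotation is given as Gencode M29 with GRCm38, which do not belong together. Positions here are those of GENCODE M21 on GRCm38, to which 52083 of 55359 identifiers (94.1%) matched, and sequences are its transcripts.

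Genes were kept by filterByExpr, scaled by TMM and tested with edgeR 4.0.16 in R 4.3.3 (quasi-likelihood F test, Benjamini-Hochberg adjustment over all genes tested), in the 7 libraries with strain as the only term. Calls needed an adjusted p no larger than 0.1 together with a log2 fold change of 1 or more in either direction. The interaction of strain and region was fitted on the 14 libraries of this age. DESeq2 1.42.0 and limma 3.58.1 were alternatives. Bounds of fold changes against 0 counts use 3 counts over the group. SE was derived from the fitted coefficient and its F statistic, and the common biological coefficient of variation was 0.251. Parent and copy were aligned with Biopython 1.88.

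The genes named were the called genes, 8 genes of the study, up to 3 genes with the smallest p of each of 42 lists, and fixed markers of choroid plexus, glia and hippocampal fields. Other genes, such as Pcnp, Rpp25l, Galt, Ccl27a and the predicted genes near Dctn3, and further members of lists, were named after their values were seen. The libraries were chosen by their labels and the lists were written by hand, both with earlier results of these data known. In simulated data of 15001 genes for this comparison, 33% of 97 genes changed by a log2 fold of 1 were called. So were 86.8% of 91 genes changed by 2 and 0.0945% of 14813 unchanged genes. The adjusted p depends on how many genes truly change, which is unknown in the real data. These shares therefore do not carry over to the calls made here. The mice of one strain were taken as replicates, and no 2 hippocampal libraries of the same strain were copies of one another (lowest chi-square per degree of freedom 6.57). Pairs between strains were not checked.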

Additional observations from a re-analysis of the deposited data

Results flagged for a closer look

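Within the 4 SAMR1 libraries, 197 groups of values (155 genes and 42 summed lists) were checked for 1 library far from the other 3 by Dixon's criterion (gap to the nearest value over the whole range), and 24 stood out. Chance flags about 1 in 20 groups. SAMP8, with 3 libraries, was not checked.

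SAMR1 replicate 2 accounted for 10 of the 24, all of them choroid plexus values. It was highest for Ttr (5680 CPM, next 226), Enpp2 (2810, next 377), Clic6 (215, next 16), Kl (195, next 27.1), Prlr (96.9, next 15.4), Folr1 (43, next 3.48), Kcnj13 (33, next 2.78), Sostdc1 (31.4, next 4.39) and Aqp1 (31.3, next 2.09), and for the summed list (10300 CPM, next 810). SAMP8 replicates 2 and 3 had like levels of Ttr, as given above.

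SAMR1 replicate 4 accounted for 8. It was highest for Adgrl4, an endothelial receptor (13.8 CPM, next 3.55), Dusp6, a phosphatase of the MAP kinase pathway (62.4, next 29.8), and Tnr, the matrix protein tenascin-R (412, next 330). Its summed level was highest for immediate early genes (2410 CPM, next 1300), voltage-gated calcium and potassium channels (5010, next 3850) and imprinted genes (8340, next 6580), and lowest for oligodendrocytes and myelin (5180, next 7830) and fatty acid binding and lipid transport (5630, next 7150). SAMR1 replicate 1 was highest for Hist1h4c (39.4 CPM, next 14.7), Hist1h4i (12.7, next 5.56) and the summed replication-dependent histones (611, next 337), and lowest for Ranbp9 (79, next 97). SAMR1 replicate 3 was highest for Gm8281 (4.87 CPM, next 3.24) and lowest for Uqcrc2, a complex III subunit (109, next 129).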

How the results depend on the processing

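Of 3060 results of the alternatives over 156 named genes, 2915 stayed on their side of the threshold, 100 lost and 45 gained the call. Only the 14 called genes could lose a call, so the 2915, mostly of uncalled genes, do not measure how stable the calls were. The sign changed in 48 of the 3060, of 24 genes, 0 of them called. Of the 48, 13 came from the fit without the 3 libraries high in choroid plexus genes and 13 from those 3 alone. The number of genes called in hippocampus (14) was 53 by DESeq2, 93 without a filter on low counts, 2 without replicate 1 of both strains together, 5 at an adjusted p of at most 0.05 without a fold threshold, and 3 to 13 with each library left out in turn. Chosen after seeing the data, it was 2 without the 3 libraries high in choroid plexus genes and 108 in those 3 alone, 2 against 1. The causes were not tested. DESeq2 called all 14 and limma voom 12 of them. The interaction count was 0 to 2 with each library left out in turn, with 2 (Agt and Trpc6) without SAMR1 cortex replicate 3. With the replicate number as a block, 10 genes were called, 7 of them shared with the 14, and 0 in the interaction, but the numbers did not pair the mice (correlations 0.107, 0.0904 and 0.0435, and 0 SAMP8 libraries closest to the SAMR1 library of their number). In the 41-library fit, 1 postsynaptic gene, 3 modifiers and 0 mitochondrial genes had an unadjusted p of at most 0.05 and the lower level in SAMP8, against 9, 10 and 5, and 1.26% against 3.57% of all genes. An offset for GC content and length, known for 99.6% of genes, moved the mitochondrial median to -0.79. In the shallowest library, of 1992423 counts, 1 CPM is about 2 counts, which limits the low genes.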
